A study of Danio rerio with 24 samples.

Results

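Whole zebrafish embryos of the WT line were compared after exposure to 1 ng/mL TCDD (2,3,7,8-tetrachlorodibenzo-p-dioxin) or to the control treatment, both from 6 hours post fertilization (hpf) with collection at 48 hpf. The title of the authors' results for this comparison names the WT control as DMSO. The comparison takes in 8 of the 24 samples of the series, the 4 numbered replicates of WT control and the 4 of WT TCDD, and all 20907 genes that passed a filter on low counts. Another 8 samples, TCDD and control embryos of slincRosu3, a line with a CRISPR-Cas9 mutation in the noncoding RNA slincR, went through the same exposure and serve here as a comparison on other libraries. The 8 samples of the line BigD were not analysed here. Because whole embryos were sequenced, every tissue is mixed in each library, and fewer cells of a type cannot be told apart from less RNA per cell. The labels do not say whether a replicate is a separate clutch, tank or pool of embryos, so the p-values measure the spread between these samples, which may be technical.

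TCDD is a ligand of the aryl hydrocarbon receptor (AHR), a transcription factor that waits in the cytoplasm with chaperones, enters the nucleus when a ligand binds, pairs with ARNT and switches on genes with its response element. Its best known targets are the cytochrome P450 genes of family 1, conjugating enzymes, and its own brakes, the AHR repressors and TIPARP. In zebrafish, the receptor encoded by ahr2 mediates most of the toxicity of TCDD, which is known for malformed hearts, shortened jaw cartilage, fluid around the heart and blocked fin regeneration.

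The 8 WT libraries held between 17823951 and 20100736 counts. TCDD 1 and 2 held the fewest, 17823951 and 17947816, and TCDD 3 and 4 the most, 19924611 and 20100736. TCDD 3 and 4 had 24778 and 24782 genes with at least 1 count, against 25181 to 25471 in the other 6, and the largest shares of reads assigned to a gene, 42.5% and 43.2% against 39.8% to 41.6%. On the first principal component of log2 CPM (counts scaled to a common library total), which held 29.8% of the variance and separated neither line nor treatment, WT control 4 scored 56.2, TCDD 4 35.5, TCDD 3 32.7 and control 1 18.1, while TCDD 1 and 2 scored -9.57 and -35.3. Fitted without the 4 libraries that scored highest over both lines (WT control 4, TCDD 3 and 4 and slincRosu3 control 4), 327 genes were called, 61 of them among the 68 called with all libraries. The calls of her4.3, stab2, ephb4b, nfatc4, herpud1 and krt1-19d were among those that ended there. The treatment labels hold in each library, since cyp1a (ENSDARG00000098315) stood at 2.75 to 5.04 CPM in the 4 controls and at 856 to 1231 CPM in the 4 TCDD libraries.

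Embryos exposed to TCDD carried more RNA of a small group of genes, and few genes fell. With edgeR (quasi-likelihood F test, p adjusted by Benjamini and Hochberg over all genes, threshold 0.05), 68 of 20907 genes changed, 0.325%, with 62 higher (0.297%) and 6 lower (0.0287%). In all 68 the 4 TCDD libraries lay outside the range of the 4 controls. Among all genes 425 (2.03%) had all TCDD libraries higher and 212 (1.01%) all lower. The calls rest on the same values, so this separation adds no support to them. Of the 62 rises 35 were at least 1 on the log2 scale and 27 were smaller. The spread was estimated over 16 libraries of both lines, and a fit of the 8 WT libraries alone kept 26 of the 68 calls, all of them rises. An unadjusted p under 0.05 was seen for 1676 genes (8.02%).

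**Figure D1:**
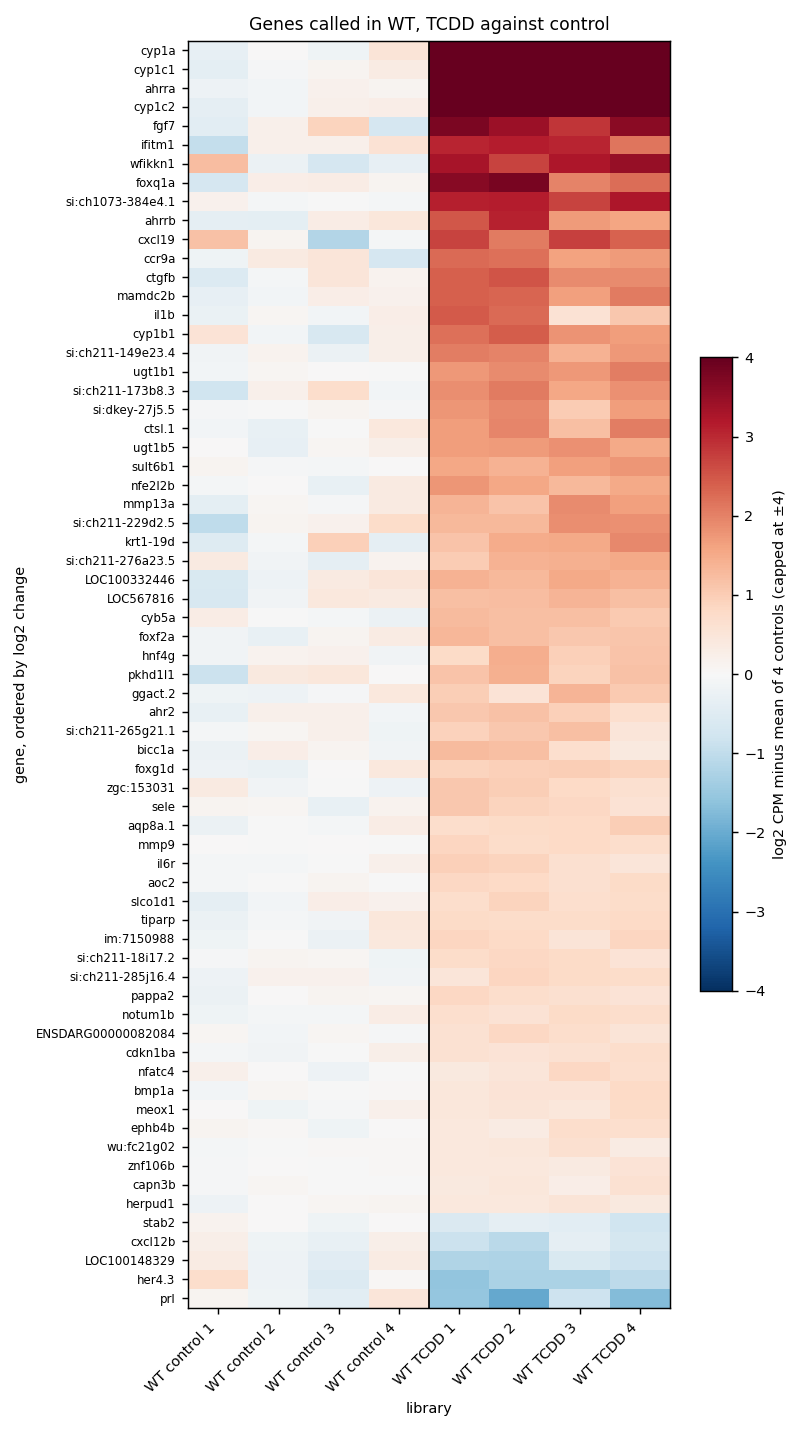
Of the 68 genes that changed with TCDD in WT, 67 (rows, by log2 change) in the 8 WT libraries (columns). Colour is log2 CPM minus the mean of the 4 controls, capped at 4 in either direction; the rises show red in all 4 TCDD libraries and the falls blue, with paler red in TCDD 3 and 4 than in TCDD 1 and 2 for foxq1a, ahrrb and il1b.

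The receptor and its brakes rose together. The receptor gene ahr2 (ENSDARG00000021833) stood at 51.9, 74.5, 74.9 and 59.4 CPM in controls 1 to 4 and at 136, 144, 126 and 103 CPM in TCDD 1 to 4. All 4 TCDD libraries were above the highest control, and the rise was 1.95-fold (log2 0.97, SE 0.138, adjusted p = 0.00168, edgeR). The AHR repressor gene ahrra (ENSDARG00000099702) stood at 0.337 to 0.468 CPM in controls and 12.8 to 15.9 CPM with TCDD, a rise of 36.1-fold. Its paralog ahrrb (ENSDARG00000052618) stood far lower, at 0.0561, 0.0523, 0.156 and 0.187 CPM in controls and 1.08, 1.71, 0.591 and 0.525 CPM with TCDD. TCDD 1 and 2 were the higher pair for ahrrb, and the groups did not overlap (log2 3.06, SE 0.566, adjusted p = 0.0195). That call ended without TCDD 1, TCDD 2, control 1 or control 2 (adjusted p = 0.0624 to 0.105). The gene tiparp (ENSDARG00000061841), which encodes a mono-ADP-ribosyltransferase that restrains AHR, stood at 46.9, 51.6, 49.6 and 74.3 CPM in controls and 93.9, 90.9, 91.3 and 95.3 CPM with TCDD. Control 4 was the highest control, the 4 TCDD libraries were tightly grouped above it, and the log2 rise was 0.74 (SE 0.136, adjusted p = 0.0179). It was no longer past the threshold without TCDD 1, TCDD 4, control 1, control 2 or control 3 (adjusted p = 0.0502 to 0.0907).

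Of the 10 measured genes of the AHR pathway and its feedback, those 4 rose and none fell, beside 0.297% and 0.0287% of all genes. The list's median log2 change was 0.53 against 0.01 over all genes. Leaving out TCDD 3 and 4 took that median to 0.91, and leaving out TCDD 1 and 2 took it to 0.10. The partner gene arnt2 (ENSDARG00000103697) stood at 81.3 to 108 CPM in controls and 93.2 to 116 CPM with TCDD, with overlapping groups (log2 0.12, adjusted p = 0.908). The other partner gene arnt (ENSDARG00000021855) varied within both groups, from 0.560 to 4.86 CPM in controls and from 1.26 to 6.15 CPM with TCDD. The chaperone genes hsp90ab1 and aip, which hold the unliganded receptor, had log2 differences of -0.18 and 0.03 that did not pass (adjusted p = 0.799 and 0.969).

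Genes known for induction through AHR made up the list with the most calls (median log2 change 1.59). It held 11 rises and no fall among 17 measured members, beside 0.297% and 0.0287% of all genes. The lists were chosen with earlier results of these data known, so this count is not independent of them. The AHR pathway list shares 4 of the 11, ahr2, ahrra, ahrrb and tiparp. Beside cyp1a the oxygenase genes cyp1c1, cyp1c2 and cyp1b1 rose, by 5.35, 4.82 and 2.01 on the log2 scale. The fifth gene of that family, cyp1d1 (ENSDARG00000035569), stood at 22.5, 18.5, 20.2 and 26.1 CPM in controls and 18.2, 19.2, 17.6 and 15.12 CPM with TCDD. Its groups overlapped and its log2 difference of -0.32 (SE 0.110) did not pass (adjusted p = 0.469). The gene wfikkn1 (ENSDARG00000101364), which encodes a secreted protein that binds myostatin, stood at 2.08, 0.680, 0.468 and 0.622 CPM in controls and 8.93, 5.95, 8.59 and 10.18 CPM with TCDD. Control 1 was well above the other 3 controls, so the 8.72-fold rise (adjusted p = 0.000235) became 14.1-fold without that library.

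The glucuronosyltransferase gene ugt1b1 (ENSDARG00000097491) stood at 10.8, 12.4, 11.9 and 11.4 CPM in controls and 38.7, 43.4, 39.3 and 48.3 CPM with TCDD. All TCDD values were more than 3 times the highest control, and the rise was 3.65-fold (SE of log2 0.0906, adjusted p = 6.14e-10). The sulfotransferase gene sult6b1 (ENSDARG00000086826) stood at 27.4 to 31.4 CPM in controls and 76.1 to 98.4 CPM with TCDD, a rise of 3.01-fold (adjusted p = 1.07e-08). TCDD 4 was the highest library for both genes. A further 3 rises, singled out after their values were seen, were ugt1b5 (3.19-fold), cyb5a, which encodes the electron carrier cytochrome b5 (2.25-fold), and nfe2l2b, a paralog of the oxidative stress regulator Nrf2 (2.97-fold). Reads of ugt1b1 and ugt1b5 may have been split by the authors' counting, because the ugt1b genes are near-identical copies in a cluster.

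Genes of the Nrf2 and phase II list, the enzymes and regulators of the antioxidant response, gave no call among 20 measured members. Over all genes 0.297% rose and 0.0287% fell. The called genes ugt1b1, ugt1b5, sult6b1 and nfe2l2b were not on this list. Its median log2 change was 0.10, and it was -0.01 without TCDD 3 and 4 and 0.20 without TCDD 1 and 2. In 4 of the 20, gstp1, gstp2, hmox1a and nfe2l2a, all TCDD libraries were above all controls, as in 2.03% of all genes. The glutathione transferase gene gstp1 stood at 201, 185, 218 and 240.4 CPM in controls and 249.5, 249, 326 and 318 CPM with TCDD. TCDD 3 and 4 were the higher pair, and the log2 difference was 0.44 (adjusted p = 0.156, edgeR). In slincRosu3, on other libraries, the same gene rose by 0.69 on the log2 scale (adjusted p = 0.00496). The heme oxygenase gene hmox1a had a log2 difference of 0.47 in WT (adjusted p = 0.538) and rose by 1.16 in slincRosu3 (adjusted p = 0.00667). The difference between the lines was not tested here.

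The gene fgf7 (ENSDARG00000059387), which encodes a growth factor that mesenchyme sends to epithelium, stood at 0.168, 0.314, 0.572 and 0.124 CPM in controls and 4.92, 3.83, 2.58 and 4.36 CPM with TCDD. The lowest TCDD value, in TCDD 3, was still above every control, and the rise was 12.7-fold (log2 SE 0.395, adjusted p = 6.6e-05). It was the only called gene among 36 measured members of the Fgf and BMP list, beside 0.297% of all genes that rose, and the list's median log2 change was 0.11. The gene ctgfb (ENSDARG00000104292), for connective tissue growth factor, a matrix-bound regulator of cell adhesion, stood at 1.74, 2.46, 3.69 and 2.86 CPM in controls and 14.02, 15.5, 9.94 and 9.97 CPM with TCDD. TCDD 1 and 2 were above TCDD 3 and 4, which were above all controls (4.58-fold, adjusted p = 6.4e-06). The gene mamdc2b rose 4.55-fold, with 1.29 to 2.03 CPM in controls and 5.37 to 9.15 CPM with TCDD.

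Of 20 measured genes of matrix remodelling 2 rose and none fell, and all TCDD libraries were above all controls in 6 (median log2 change 0.16). Over all genes 0.297% rose, 0.0287% fell and 2.03% had all TCDD libraries above all controls. The collagenase gene mmp13a (ENSDARG00000012395) stood at 1.40, 1.99, 1.82 and 2.43 CPM in controls and 4.98, 4.24, 7.20 and 6.04 CPM with TCDD, with TCDD 3 and 4 as the higher pair (2.94-fold, adjusted p = 0.000721). The gelatinase gene mmp9 (ENSDARG00000042816) stood at 4.54, 4.44, 4.58 and 4.42 CPM in controls and 8.28, 7.50, 7.84 and 7.35 CPM with TCDD. Both groups were narrow for mmp9 and did not overlap (1.72-fold, log2 SE 0.109, adjusted p = 0.00137). The other 4 were junba, mmp11a, mmp2 and msx2b, with log2 differences of 1.01, 0.42, 0.22 and 0.56 that did not pass. Outside the list, bmp1a, the procollagen C-proteinase gene, rose 1.504-fold, and pappa2, which cleaves binding proteins of insulin-like growth factors, 1.61-fold.

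Among 21 measured chemokine and cytokine genes 3 rose and 1 fell, beside 0.297% and 0.0287% of all genes (median log2 change 0.09). The chemokine gene cxcl19 (ENSDARG00000102776) stood at 0.449, 0.157, 0 and 0.124 CPM in controls and 1.52, 0.931, 1.56 and 1.15 CPM with TCDD, and the groups did not overlap. Its 6.91-fold rise (adjusted p = 0.00991) became 13.1-fold without control 1, and the call ended without control 2 (adjusted p = 0.0588). The chemokine receptor gene ccr9a rose 4.60-fold, with 0.124 to 0.416 CPM in controls and 1.02 to 1.68 CPM with TCDD (adjusted p = 0.00202). The inflammatory cytokine gene il1b (ENSDARG00000098700) stood at 0.224, 0.314, 0.260 and 0.373 CPM in controls and 2.06, 1.81, 0.483 and 0.735 CPM with TCDD. TCDD 1 and 2 were far above TCDD 3 and 4, which were above the highest control (4.29-fold, SE of log2 0.430, adjusted p = 0.044), and the call ended without TCDD 1, TCDD 2, control 1, control 2, control 3 or control 4 (adjusted p = 0.0833 to 0.181). It was the only called gene among 20 measured genes of macrophages and neutrophils, beside rises in 0.297% of all genes. That list had a median log2 change of -0.01. The interferon-induced membrane protein gene ifitm1 (ENSDARG00000093303) stood at 0.0561, 0.261, 0.260 and 0.373 CPM in controls and 2.54, 2.74, 2.58 and 1.31 CPM with TCDD, lowest among the treated in TCDD 4 (9.48-fold, adjusted p = 0.00148).

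Among 20 measured forkhead genes 2 rose and none fell, and 4 had all TCDD libraries above all controls, beside 0.297%, 0.0287% and 2.03% of all genes (median log2 change 0.25, and 0.15 without control 1). The gene foxf2a (ENSDARG00000017195), a factor of mesenchyme around vessels and gut, stood at 19.1, 17.3, 22.6 and 26.3 CPM in controls and 53.2, 48.0, 44.2 and 45.3 CPM with TCDD. The 4 TCDD libraries were close together and well above the controls (2.24-fold, SE of log2 0.113, adjusted p = 1.7e-05). Its relatives foxf2b and foxf1 also had non-overlapping groups, with log2 differences of 0.46 and 0.42 that did not pass (adjusted p = 0.163 and 0.199). The gene foxq1a (ENSDARG00000030896) stood at 2.41, 4.76, 4.79 and 4.23 CPM in controls and 50.5, 56.3, 15.7 and 18.8 CPM with TCDD. TCDD 1 and 2 held about 3 times the level of TCDD 3 and 4, and every TCDD library was above every control (8.70-fold, adjusted p = 0.000114). A further forkhead gene outside the list, foxg1d, rose 1.90-fold, to 7.85 to 8.49 CPM in the 4 TCDD libraries.

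Of the 68 called genes 31 changed by less than 1 on the log2 scale (0.148% of genes tested), 27 of them higher (0.129%) and 4 lower (0.0191%). In simulated counts the test recovered 15.6% of changes of 0.5, 71.6% of changes of 1 and 86.2% of changes of 2 on the log2 scale. Those counts were drawn independently gene by gene, so these shares may not hold for the real libraries. Of the 31, 13 kept their call in all 8 fits that left out 1 WT library. The count of small changes was 18, 16 and 19 without control 1, 2 or 3 and 16 and 20 without TCDD 1 or 2. Small rises with narrow groups were seen for znf106b, a zinc finger gene (ENSDARG00000091947), which stood at 29.6, 31.0, 30.2 and 31.4 CPM in controls and 41.2, 41.4, 39.2 and 44.8 CPM with TCDD. The 2 groups were separated by more than the width of the controls, and the rise was 1.36-fold (log2 SE 0.0732, adjusted p = 0.00658). The cyclin-dependent kinase inhibitor gene cdkn1ba (p27, ENSDARG00000029018) stood at 35.5, 34.4, 37.1 and 44.9 CPM in controls and 58.0, 55.2, 57.1 and 61.4 CPM with TCDD, a rise of 1.53-fold (adjusted p = 0.00384). Control 4 was the highest control and TCDD 4 the highest TCDD library.

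The amine oxidase gene aoc2 (ENSDARG00000014646) stood at 30.0, 31.2, 34.5 and 31.7 CPM in controls and 56.2, 54.9, 49.1 and 53.6 CPM with TCDD (1.68-fold, adjusted p = 0.00095). It was 1 of 3 small changes still past the threshold when the 8 WT libraries were fitted alone. The water channel gene aqp8a.1 rose 1.75-fold, with 8.69 to 12.6 CPM in controls and 16.7 to 20.2 CPM with TCDD. The gene sele, for E-selectin, which catches leukocytes on vessel walls, rose 1.81-fold, with 3.43 to 4.67 CPM in controls and 6.46 to 9.04 CPM with TCDD. The ephrin receptor gene ephb4b, known from veins, stood at 29.3 to 35.6 CPM in controls and 41.3 to 53.5 CPM with TCDD, but its call (adjusted p = 0.0254) ended without TCDD 3, TCDD 4, control 2 or control 3 (adjusted p = 0.0732 to 0.0907). The secreted Wnt inhibitor gene notum1b rose 1.60-fold. It was the only called gene among 29 measured Wnt genes (median log2 change 0.15), beside rises in 0.297% of all genes. Its call ended without TCDD 1, TCDD 3, TCDD 4, control 1, control 2 or control 3 (adjusted p = 0.0643 to 0.12).

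Other small calls ended when single libraries were left out. The interleukin 6 receptor gene il6r stood at 4.32 to 5.35 CPM in controls and 6.51 to 9.09 CPM with TCDD, and lost its call without TCDD 1, TCDD 2, control 1, control 2 or control 3 (adjusted p = 0.0789 to 0.122). The calcineurin-dependent transcription factor gene nfatc4 (1.52-fold) lost it without TCDD 3, TCDD 4, control 2, control 3 or control 4 (adjusted p = 0.0525 to 0.0957). The anion transporter gene slco1d1 (1.67-fold) lost it without TCDD 1, TCDD 2, TCDD 3, TCDD 4, control 1, control 2 or control 4 (adjusted p = 0.0656 to 0.184). The calpain protease gene capn3b stood at 68.5 to 73.4 CPM in controls and 85.0 to 106 CPM with TCDD, with a call that ended without TCDD 2, control 1 or control 3 (adjusted p = 0.0524 to 0.0528). The gene herpud1, of the endoplasmic reticulum stress response, rose 1.35-fold in the fit of all libraries and lost its call without any 1 WT library (adjusted p = 0.0501 to 0.159).

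**Figure D2:**
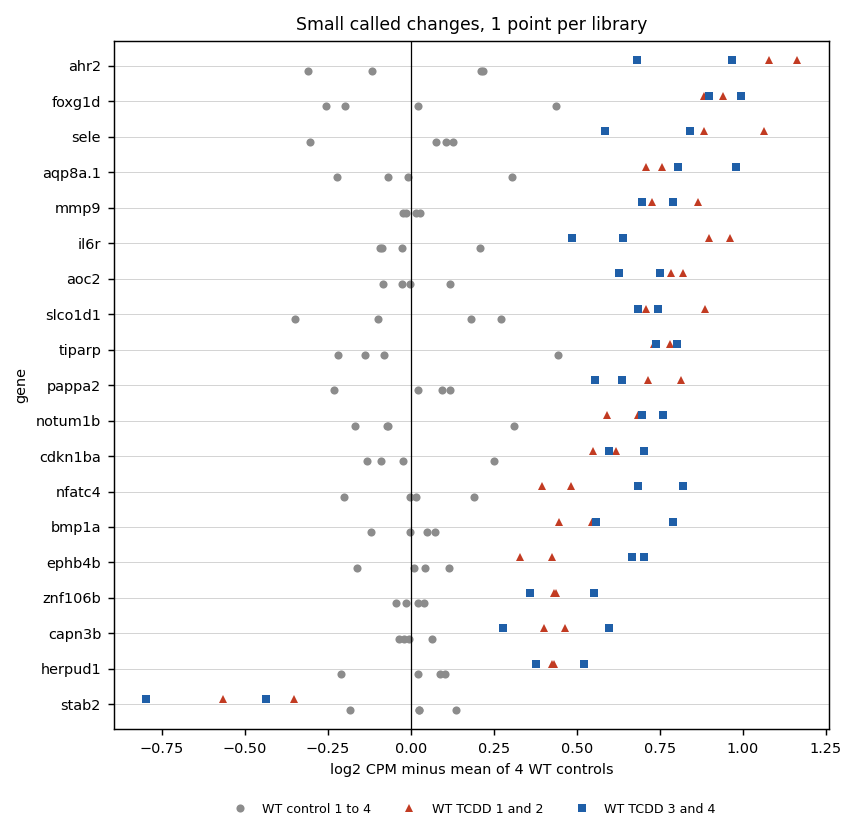
Log2 CPM minus the mean of the 4 WT controls (x axis) for 19 of the 20 small called changes with the smallest p and a gene symbol (y axis), 1 point per library. Grey circles are controls, red triangles TCDD 1 and 2, blue squares TCDD 3 and 4; for each gene the 4 TCDD points lie to 1 side of all 4 controls, and for il6r the triangles lie right of the squares while for ephb4b and nfatc4 the squares lie right of the triangles.

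The small rises were seen again in libraries of the other line, which share no sample with the WT groups but share the fit's estimate of spread. Of the 27 small rises 22 were also past the threshold for TCDD against control in slincRosu3, where 80 of 20907 genes changed (0.383%), 74 of them higher (0.354%). All 27 had the same sign there, and in 25 the slincRosu3 groups did not overlap in the same direction, against 654 genes (3.13%) with all TCDD libraries higher among all genes. The gene znf106b had a log2 change of 0.47 in slincRosu3 beside 0.45 in WT, bmp1a 0.62 beside 0.59, and aoc2 0.70 beside 0.75. The genes herpud1, pappa2 and slco1d1 were among the 5 small rises that did not pass in slincRosu3 (adjusted p = 0.693, 0.0798 and 0.123). Of the 4 small falls none passed there, beside 0.0287% of all genes that passed lower, and 2 had the same sign. Those 2, cxcl12b and stab2, had groups that did not overlap there, beside 333 genes (1.59%) with all TCDD libraries lower. Among the larger rises ggact.2, a cyclotransferase gene with tandem copies whose reads may be shared, had a log2 change of 1.02 in WT and 0.06 in slincRosu3, where it stood at 17.9 to 19.2 CPM already in controls against 2.88 to 4.54 CPM in WT controls. It was singled out after its values were seen.

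**Figure D3:**
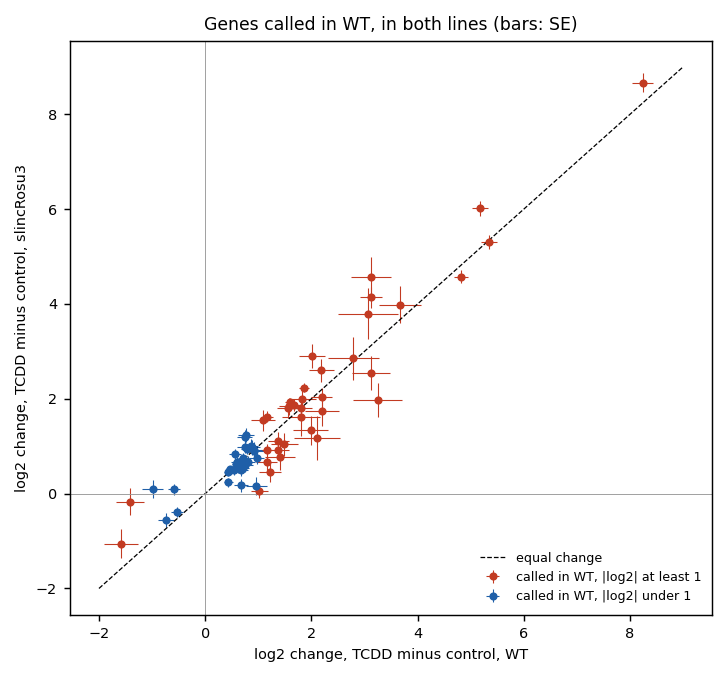
Log2 change of TCDD against control in slincRosu3 (y axis) beside that in WT (x axis) for the 68 genes called in WT, with bars of 1 SE and a dashed line of equal change. Blue points are changes under 1 on the log2 scale and red points larger ones; all 27 small rises lie above 0 on both axes, and ggact.2 lies near 0.06 on the y axis.

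Among the 6 genes that fell, none kept its call in every fit that left out 1 library, and none was called with the 8 WT libraries alone. The pituitary hormone gene prl (ENSDARG00000037946), for prolactin, stood at 3.87, 3.14, 2.60 and 4.98 CPM in controls and 1.14, 0.776, 1.93 and 0.997 CPM with TCDD. The highest TCDD value was in TCDD 3 and was below the lowest control (log2 -1.58, SE 0.321, adjusted p = 0.0419); the call ended without TCDD 1, TCDD 2, TCDD 4, control 1, control 2 or control 4 (adjusted p = 0.0768 to 0.159). Of 8 measured pituitary genes it was the only one called, beside falls in 0.0287% of all genes. The list's median log2 change was 0.03. In slincRosu3 prl had a log2 difference of -1.06 (adjusted p = 0.282) and groups that did not overlap.

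The Notch-responsive repressor gene her4.3 (ENSDARG00000070770) stood at 5.72, 3.03, 2.34 and 3.61 CPM in controls and 1.08, 1.40, 1.40 and 1.63 CPM with TCDD. Control 1 was the highest and the groups did not overlap (log2 -1.41, SE 0.267, adjusted p = 0.0246). The call ended without TCDD 1, TCDD 2, TCDD 3 or control 1 (adjusted p = 0.0591 to 0.114). Its tandem copy her4.2 had a log2 difference of -1.27 (adjusted p = 0.0565), and reads of the her4 copies may have been divided between them. In slincRosu3 her4.3 stood at 1.00 to 1.62 CPM in controls, already at the level of the WT TCDD libraries, and at 0.867 to 1.55 CPM with TCDD.

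The chemokine gene cxcl12b (ENSDARG00000055100), which guides migrating cells and growing vessels through Cxcr4, stood at 65.2, 49.3, 45.7 and 65.9 CPM in controls and 31.0, 26.4, 43.8 and 34.3 CPM with TCDD. TCDD 3 was only just below the lowest control, and the call (log2 -0.74, adjusted p = 0.0483) ended without TCDD 1, TCDD 2, TCDD 4, control 1, control 2 or control 4 (adjusted p = 0.0672 to 0.199). The gene stab2 (ENSDARG00000045748), for a scavenger receptor of vein and lymph endothelium, stood at 31.7, 29.3, 25.3 and 29.3 CPM in controls and 19.4, 22.5, 21.3 and 16.5 CPM with TCDD. Its groups did not overlap in either line, but the log2 change of -0.54 (adjusted p = 0.0419) ended without TCDD 1, TCDD 3, TCDD 4, control 1, control 2 or control 4 (adjusted p = 0.0536 to 0.165). The unnamed locus LOC100148329 had a log2 change of -0.99 in WT, lost without TCDD 1, TCDD 2, TCDD 4, control 1, control 2 or control 4 (adjusted p = 0.0578 to 0.17), and 0.10 in slincRosu3.

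Among the 13152 genes with a mean of at least 5 CPM, all 4 WT TCDD libraries were above all controls in 270 (2.05%) and below in 114 (0.867%). Of these, 219 higher and 108 lower genes had a log2 difference under 1 and no call. In slincRosu3, where 3.45% of the genes at that level had all TCDD libraries higher and 1.49% all lower, 43 of the 219 were separated the same way and 2 the opposite way. Of the 108 lower genes 5 were separated the same way and 1 the opposite way. Over all genes tested, called ones included, the groups were separated upward in both lines for 122 genes and upward in WT but downward in slincRosu3 for 3. Downward in both lines were 11 genes, and downward in WT but upward in slincRosu3 were 4. Of the 48 uncalled genes separated the same way in both lines (43 higher and 5 lower) 6 passed the threshold in slincRosu3, 5 higher and 1 lower. Over all genes 0.354% passed there higher and 0.0287% lower. The 48 were picked for their separation in the same slincRosu3 libraries, so these passes add no support. The same holds for the slincRosu3 p-values of genes from this group given below.

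By smallest p in WT these 48 were led by tsc22d1, a leucine zipper regulator, at 75.3, 72.5, 75.7 and 84.4 CPM in controls and 99.2, 93.9, 109.7 and 108 CPM with TCDD. The TCDD libraries were all higher, with TCDD 3 highest, and the log2 difference of 0.41 just missed the threshold (adjusted p = 0.0549). The thrombospondin gene thbs1b, a matrix glycoprotein, stood at 125, 139, 140.2 and 130.4 CPM in controls and 219.9, 215, 156 and 167 CPM with TCDD (adjusted p = 0.0925). TCDD 1 and 2 were the higher pair for thbs1b. The fin fold homeobox gene msx2b stood at 14.2, 12.8, 13.1 and 16.9 CPM in controls and 19.6, 19.8, 25.3 and 19.4 CPM with TCDD, highest in TCDD 3 (log2 0.56, adjusted p = 0.112), and it rose by 0.76 in slincRosu3 (adjusted p = 0.0114). The next genes upward were igfbp7, steap4, pvalb7, cpxm1b, hlfa, acvrl1 and sgk3, with log2 differences of 0.62, 0.87, 0.74, 0.47, 0.58, 0.39 and 0.47 in WT, none past the threshold.

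Of the 4 named genes lower in both lines, 3 are known from vessels and the cells around them. Other genes of vessels, sele and ephb4b, were called rises in WT (log2 0.86 and 0.54). The gene plvapb, for the diaphragm protein of endothelial pores, stood at 29.1, 27.6, 29.9 and 30.2 CPM in controls and 23.7, 21.7, 20.5 and 23.4 CPM with TCDD. The log2 difference was -0.39 in WT (adjusted p = 0.13), and it fell by 0.50 in slincRosu3 (adjusted p = 0.0159). The pericyte and mesenchyme gene cd248a had log2 differences of -0.23 and -0.27 in the 2 lines, and ptprb, for an endothelial phosphatase, -0.20 and -0.41. Neither passed in WT (adjusted p = 0.514 and 0.700, edgeR) or in slincRosu3 (0.432 and 0.231). For ptprb WT TCDD 1 stood at 14.4 CPM and TCDD 2 to 4 at 19.29 to 19.66 CPM, barely below the lowest control at 19.71 CPM. The remaining gene, fam212aa, had -0.54 and -0.31. Within the list of vessel endothelium, however, 28 measured genes had a median log2 change of 0.01 and 1 fell (stab2), beside 0.0287% of all genes. In WT 2 were separated upward and 2 downward, beside 2.03% and 1.01% of all genes.

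Of the 356 different genes measured in the 18 tissue and cell type lists 6 were called (1.69%), beside 0.325% of all genes; the lists were chosen with earlier results of these data known. No gene was called in 12 of the lists. Of these, 7 were heart muscle (20 measured genes, median log2 change -0.13), cartilage and skeleton (23, 0.03), erythroid cells (18, -0.13), neurons (21, 0.18), lens (22, 0.03), skeletal muscle (25, -0.12) and liver and yolk (21, 0.03). The other 5 were radial glia and glia (14, 0.00), pigment cells and neural crest (20, -0.02), hatching gland (6, -0.19), pancreas and gut (17, 0.06) and kidney and ionocytes (20, 0.05). Heart marker myl7, a myosin light chain, stood at 25.9 to 40.1 CPM in controls and 21.6 to 31.7 CPM with TCDD, and the cartilage collagen gene col2a1a had a log2 difference of 0.04. The epidermis list held 1 call in 25, the keratin gene krt1-19d, at 6.34, 8.52, 17.8 and 7.03 CPM in controls and 19.97, 25.8, 26.2 and 34.5 CPM with TCDD. Control 3 was close to the lowest TCDD library, and the call (log2 1.42, adjusted p = 0.0395) ended without TCDD 2, TCDD 3, TCDD 4, control 1, control 2 or control 4 (adjusted p = 0.0682 to 0.162). The photoreceptor and retina list had a median log2 change of 0.39.

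Averaged over its genes as centred log2 CPM, the photoreceptor and retina list stood at -0.72, -0.38, 0.44 and -0.17 in controls 1 to 4 and at 0.14, 0.32, -0.16 and 0.53 in TCDD 1 to 4. Control 1 was lowest and control 3 close to the highest TCDD library, so the groups overlapped. The list of Notch genes and neural progenitors (24 measured, median log2 change -0.50) held 1 fall, beside 0.0287% of all genes. Its mean stood at 0.64, 0.23, -0.15 and 0.39 in controls and -0.52, -0.59, 0.11 and -0.10 with TCDD. Control 1 was highest, TCDD 1 and 2 were lowest, and TCDD 3 and 4 lay within the control range. The cell cycle list (24 measured, none called, median -0.37) stood at 0.63, 0.24, -0.10 and -0.08 in controls and -0.34, -0.34, 0.06 and -0.07 with TCDD, again with control 1 highest. Control 1 was thus the extreme library of all 3 lists, low in retina and high in both others. Without it the medians were 0.24 for retina, -0.35 for the Notch list and -0.17 for the cell cycle list. The pathway lists of the p53 response (13 measured, median 0.05), the hypoxia response (22, -0.05) and retinoid metabolism (20, -0.07) held no call. For these lists and the cell cycle list this stands beside calls in 0.325% of all genes.

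**Figure D4:**
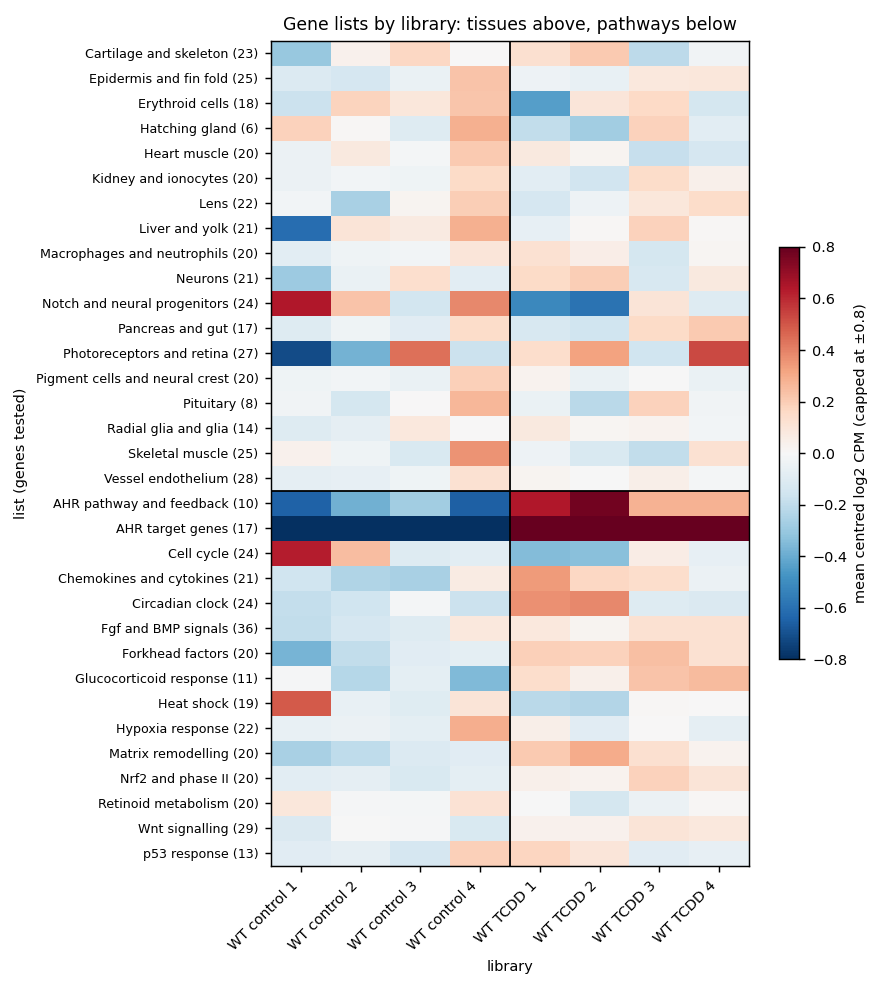
Mean centred log2 CPM (colour, capped at 0.8 in either direction) of 33 gene lists (rows, with the number of genes tested) in the 8 WT libraries (columns), 18 tissue lists above the line and 15 pathway lists below it. In 7 lists every TCDD library lies above every control: AHR pathway and feedback, AHR target genes, Nrf2 and phase II, matrix remodelling, Wnt signalling, forkhead factors and the glucocorticoid response. The gap is narrow for Wnt signalling (highest control -0.006, lowest TCDD 0.034) and the glucocorticoid response (-0.007 and 0.043). The glucocorticoid and Nrf2 lists hold no call, beside calls in 0.325% of all genes. Some lists share members, and all were chosen with earlier results of these data known. The means take in the called genes, so for lists with calls the separation is not independent of those calls. The circadian clock list is high in TCDD 1 and 2 only, and the Notch and neural progenitor list is low in TCDD 1 and 2 and high in control 1.

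The 4 TCDD libraries differed among themselves. The order of replicates 1 and 2 against 3 and 4 is described here gene by gene without a test, because the split was noticed in these data. Among 13152 genes with a mean of at least 5 CPM, 58 (0.441%) were higher in TCDD 1 and 2 by a gap of more than 1 on the log2 scale and 7 (0.0532%) were higher in TCDD 3 and 4. The 10 widest gaps with TCDD 1 and 2 higher included fosab, egr1, nfkbiaa, ier2a and ier2b; fosab and egr1 are immediate early genes, which cells switch on within minutes of a stimulus. The gene fosab (ENSDARG00000031683), a subunit of the transcription factor AP-1, stood at 71.7 and 67.6 CPM in TCDD 1 and 2, at 4.08 and 5.46 CPM in TCDD 3 and 4, at 3.25 to 6.47 CPM in WT controls and at 2.75 to 7.64 CPM in slincRosu3 TCDD. Only TCDD 1 and 2 were high, and TCDD 3 and 4 lay within the control range. The early growth response gene egr1 stood at 104 and 131 CPM in TCDD 1 and 2 and 22.4 and 21.1 CPM in 3 and 4, beside 14.5 to 25.0 CPM in controls. The gene ier2a stood at 50.2 and 48.3 CPM and 10.7 and 13.1 CPM, beside 9.20 to 11.6 CPM, and ier2b at 22.8 and 18.9 CPM and 4.35 and 6.67 CPM, beside 4.09 to 5.88 CPM. The gene nfkbiaa, for the inhibitor of NF-kB, stood at 40.7 and 45.9 CPM and 7.30 and 8.82 CPM, beside 6.502 to 9.89 CPM. In all 5 genes the upper pair was at least 3 times the highest control.

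The circadian clock list showed the same division: in 19 of its 24 measured genes (79.2%) TCDD 1 and 2 were both above TCDD 3 and 4, and in 3 the reverse, beside 29% and 28.8% over all genes. Its mean stood at 0.37, 0.39, -0.10 and -0.11 in TCDD 1 to 4 and at -0.19, -0.16, -0.01 and -0.17 in the controls. The nuclear receptor gene nr1d1, a repressor in the clock, stood at 3.14 and 2.74 CPM in TCDD 1 and 2 and 0.967 and 0.945 CPM in TCDD 3 and 4, beside 0.498 to 0.936 CPM in controls. The clock gene per1b stood at 58.7 and 67.3 CPM and 20.8 and 15.6 CPM, beside 20.8 to 31.9 CPM. The gene per2, which light induces in zebrafish, went the other way, with 4.38 and 4.499 CPM in TCDD 1 and 2, 11.2 and 14.01 CPM in TCDD 3 and 4 and 3.55 to 7.52 CPM in controls. Leaving out TCDD 3 and 4 took the list's median log2 change from 0.21 to 0.43, and leaving out TCDD 1 and 2 took it to -0.07.

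Several neural progenitor genes were lower in TCDD 1 and 2 than in the other WT libraries. TCDD 3 and 4 were both above TCDD 1 and 2 in 16 of the 24 measured genes of that list (66.7%). The reverse held in none, and over all genes the shares were 28.8% and 29%. The proneural gene neurog1 (ENSDARG00000056130) stood at 12.7 and 10.8 CPM in TCDD 1 and 2, at 50.1 and 35.5 CPM in TCDD 3 and 4 and at 22.7 to 50.0 CPM in controls. The proneural gene ascl1a stood at 13.0 and 11.3 CPM and 35.6 and 29.6 CPM, beside 26.3 to 41.5 CPM, and ascl1b at 11.4 and 9.62 CPM and 26.6 and 25.5 CPM, beside 17.7 to 35.0 CPM. For all 3 genes TCDD 1 and 2 were below the lowest control, and TCDD 3 and 4 were within or just above the control range. In 19 of 24 cell cycle genes (79.2%) TCDD 3 and 4 were both above TCDD 1 and 2, and in 2 the reverse. This order of the pairs was also frequent in some lists of other tissues. It held for 16 of 22 lens genes (72.7%, 2 the reverse) and 4 of 6 hatching gland genes (66.7%, 0 the reverse).

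A few genes stood out in TCDD 3 and 4 instead. The sterol synthesis genes hmgcra, for the rate-limiting reductase, and mvda stood at 11.3 and 10.18 CPM and 13.9 and 12.5 CPM there, beside 5.195 and 4.03 CPM and 5.79 and 6.10 CPM in TCDD 1 and 2. The controls ran from 4.92 to 6.84 CPM for hmgcra and from 6.53 to 9.87 CPM for mvda, below TCDD 3 and 4 in each library. The light-responsive gene cry1bb stood at 16.7 and 16.95 CPM in TCDD 3 and 4 and 7.09 to 12.3 CPM in controls, and the RNA-binding protein gene khdc4 at 71.3 and 72.7 CPM and 41.8 to 53.1 CPM. The glucocorticoid-induced chaperone gene fkbp5 also separated the pairs, at 4.71 and 3.52 CPM and 21.7 and 25.8 CPM, but its controls ran from 1.12 to 26.5 CPM. Likewise pxdn, nlk2, tmem63ba and nyap2b were low in TCDD 3 and 4 and at a like or lower level in control 4 or control 1: pxdn stood at 1.99 and 1.47 CPM in TCDD 3 and 4, 0.560 CPM in control 4 and 2.19 CPM in control 1, against 5.63 and 19.2 CPM in TCDD 1 and 2. The muscle gene tcap and the heat shock gene hsp70.1 completed the 20 widest gaps, with TCDD 1 and 2 higher for tcap and lower for hsp70.1, both within or near the control range.

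**Figure D5:**
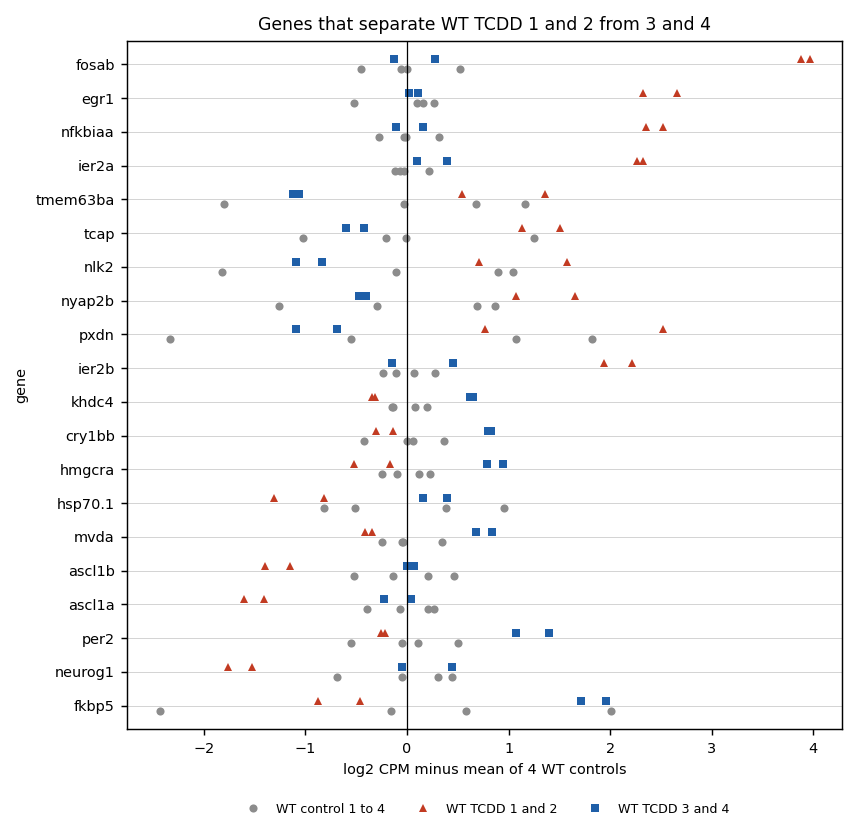
Log2 CPM minus the mean of the 4 WT controls (x axis) for the 10 genes with the widest gap between TCDD 1 and 2 and TCDD 3 and 4 in each direction (y axis), 1 point per library. Grey circles are controls, red triangles TCDD 1 and 2, blue squares TCDD 3 and 4; for fosab, egr1, nfkbiaa, ier2a and ier2b the triangles lie far right of all other points, and for per2, hmgcra, mvda, cry1bb and khdc4 the squares lie right of all other points.

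Fits that kept only 1 TCDD pair gave different counts of calls. The pairs were chosen for a split seen in these data, and keeping 2 like libraries may lower the spread within the group. These counts are therefore a description and no test of the split. Fitted without TCDD 3 and 4, 132 genes rose and 40 fell of 21450 tested (0.615% and 0.186%); fitted without TCDD 1 and 2, 72 rose and 81 fell of 21354 (0.337% and 0.379%). Of the 68 calls, 54 held in the first fit and 44 in the second, and both fits use the same 4 controls. Of the 11 called AHR target genes 9 were past the threshold in both fits, among them cyp1a, 333-fold and 271-fold above control, and foxq1a, 13.2-fold and 4.26-fold. The gene ahrrb was past it only without TCDD 3 and 4, and tiparp in neither fit. For il1b the log2 change was 2.71 with TCDD 1 and 2 and 1.05 with TCDD 3 and 4.

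The gene sox9b (ENSDARG00000043923), a regulator of cartilage, heart and fin development after which slincR is named, stood at 155, 134, 112 and 159 CPM in controls and 67.1, 57.8, 131 and 102 CPM in TCDD 1 to 4. TCDD 1 and 2 were below every control, while TCDD 3 lay inside the control range and TCDD 4 below it. With all 4 libraries the log2 difference of -0.64 (SE 0.214) did not pass (adjusted p = 0.414, edgeR); it was -1.16 without TCDD 3 and 4 and -0.26 without TCDD 1 and 2. In slincRosu3 sox9b stood at 99.9, 103, 99.2 and 132 CPM in controls and 98.0, 78.1, 58.4 and 83.0 CPM with TCDD. All 4 TCDD libraries there were below all controls, and the log2 difference of -0.45 did not pass (adjusted p = 0.999). In WT the paralog sox9a stood at 38.8, 51.8, 49.9 and 23.3 CPM in controls and 40.5, 46.2, 39.7 and 35.2 CPM with TCDD, and its groups overlapped. Among the 62 called rises, TCDD 1 and 2 were both above TCDD 3 and 4 in 21 and both below in 11, beside 29% and 28.8% of all genes, and among the 6 falls both below in 3.

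The authors' deposited table of DESeq2 results for the same comparison lists 143 of 26347 genes with an adjusted p under 0.05, 117 higher and 26 lower. All 68 genes called by edgeR are among the calls of the authors' deposited table, which is 100% of the edgeR calls and 47.6% of the authors' calls. The authors' deposited table also calls 18 of the 48 genes separated in both lines without an edgeR call. Both overlaps rest on the same WT counts. The 48 genes were picked for their separation in those counts and in slincRosu3, so neither overlap is independent support.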

How the data were processed

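Libraries were made from total RNA of whole embryos, and the authors' results are titled as mRNA-seq. The main deposited table gives raw counts per Ensembl gene, which the authors summed over 2 read files and cleared of zero-count and low-count genes, per the file headers and the table's own name. It holds 26347 genes and 16 of the 24 samples. In 1 slincRosu3 column the authors deposited estimated counts by the form of the values, since 1 value was not whole, and it was rounded. HISAT2, STAR, DESeq2 and the build GRCz11 are named in the submitters' processing notes; versions, counting program, annotation and strand setting are not given in the sources used here, so overlapping genes cannot be told apart. The counts of the 8 WT libraries equalled those of a second deposited table, which also gives the reads assigned to no gene. A deposited table of the authors holds log2 changes and p-values, adjusted, of the same comparison, per the file headers; it served only to be set beside these calls. Not used were 86 columns of per-sample values, among them a table whose column names did not match the values of the same libraries. The authors' symbols covered 18510 tested genes, a gene name table another 1708, and 689 had none.

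Genes were filtered with filterByExpr, scaled with TMM and tested with edgeR 4.0.16 (glmQLFit and glmQLFTest, two-sided, R 4.3.3) in 1 model of 16 libraries in 4 groups with 12 residual degrees of freedom, with Benjamini-Hochberg adjustment over 20907 genes and a threshold of 0.05. CPM are TMM-scaled, log2 CPM use a prior count of 2, and SE is the absolute log2 change over the square root of F. Total counts of 17823951 to 20100736 per WT library set a counting error that weighs most on genes under 1 CPM. The test was run on simulated counts of 20698 genes with 200 changed genes, drawn independently gene by gene. There 5% of its calls were false, a share that may not hold for the real libraries. Within groups 24 pairs of libraries were compared and 0 were identical. The correlations of deviations between same-number controls and TCDD libraries 1 to 4 were -0.22, 0.46, -0.28 and 0.25. With 2 of 4 over 0.1, they cannot settle whether the replicate numbers pair, and the main fit assumed no pairing.

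The members and the 33 gene lists were chosen with earlier results of these data known. Named genes, without clone and locus names other than among the falls, are the 15 largest rises with at least 1 CPM under TCDD, all falls, up to 20 small changes by smallest p, called list members, 9 AHR and sox9 genes, the first 10 in each direction of those separated in both lines without a call, and the 10 widest gaps in each direction between TCDD 1 and 2 and TCDD 3 and 4. Of these, 1 gene is not reported here. Other genes were singled out after their values were seen. Alternatives were DESeq2 1.42.0 size factors and Wald test, no filter, the WT libraries alone, a replicate block, each library left out, both TCDD pairs left out, the 4 libraries highest on the first component left out, and, added after seeing the data, the Wald test on the WT libraries alone. No genome or promoter sequences were used here.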

Additional observations from a re-analysis of the deposited data

Results flagged for a closer look

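In 166 groups of 4 libraries of the named genes, 6 held a library far from the other 3 by Dixon's criterion, where chance flags about 1 in 20 groups. For ifitm1, an interferon-induced gene, WT TCDD 4 stood at 1.31 CPM and the other TCDD libraries at 2.54 to 2.74 CPM. For wfikkn1, WT control 1 stood at 2.08 CPM and the other controls at 0.468 to 0.680 CPM. For the E-selectin gene sele, WT control 3 stood at 3.43 CPM and the other controls at 4.497 to 4.67 CPM. For the homeobox gene msx2b, WT TCDD 3 stood at 25.3 CPM and the other TCDD libraries at 19.4 to 19.8 CPM. For the endothelial phosphatase gene ptprb, WT control 2 stood at 23.5 CPM beside 19.7 to 20.2 CPM in the other controls, and WT TCDD 1 at 14.4 CPM beside 19.3 to 19.7 CPM in the other TCDD libraries. The part of these single libraries in the results was not tested beyond the fits that leave each one out.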

How the results depend on the processing

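No called named gene changed direction under any alternative run. The 68 calls became 143 with the DESeq2 Wald test, which held all 68, and 26 with the 8 WT libraries alone, all 26 among the 68. Without TCDD 3 and 4 there were 172 calls, without TCDD 1 and 2 there were 153, and without the 4 libraries highest on the first component (WT control 4, WT TCDD 3 and 4 and slincRosu3 control 4) there were 327, of which 61 were among the 68. The libraries left out of these fits were chosen from patterns in these data, so the counts are a description. Leaving out 1 WT library gave 46 to 76 calls, and 41 of the 68 were called in all 8 of those fits. The count stayed within 1.5 times with DESeq2 size factors (67), no filter (66) and the DESeq2 Wald test on the WT libraries alone (90, added after seeing the data). The 31 small changes became 86 with the DESeq2 Wald test, 3 with the WT libraries alone, 79 without TCDD 3 and 4 and 200 without the 4 libraries highest on the first component, and 16 to 32 with 1 WT library left out. Whether same-number replicates pair was not settled. With the replicate number as a block 80 genes were called, 61 of them among the 68, and 41 small changes. The named genes that lost their call there were prl, cxcl12b and LOC100148329. Without the low-count filter cxcl12b and herpud1 lost their calls, and with the DESeq2 Wald test on the WT libraries alone il1b and herpud1 did. Depth limits what can be said of genes under 1 CPM, such as ahrrb, il1b and cxcl19 in controls.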
